A study of Homo sapiens with 6 samples.

Results

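The DEAD and DEAH box helicases are the genes whose symbol begins with DDX or DHX followed by a number, taken from the 2 tables deposited for a ribosome profiling experiment, with DDX6 left out. The rule used the name only. It found 43 genes of the 10779 named in either table, 29 with a DDX and 14 with a DHX symbol. Translational efficiency was given for 41 of them among 8121 genes, ribosome occupancy along the mRNA for 35 among 9570 transcripts, and 33 were in both tables. DDX24 and DDX58 were in the occupancy table only, and 8 genes, DDX5, DDX19A, DDX31, DDX41, DDX55, DDX59, DHX29 and DHX57, were in the translational efficiency table only.

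The experiment used HEK293 cells, a human embryonic kidney line, and the labels give a control siRNA for all 6 libraries. Ribosome-protected fragments (RPFs, the stretches of mRNA that a ribosome shields from nuclease) and total RNA were sequenced from 3 replicates each. According to the methods the living cells were treated briefly with cycloheximide, which holds ribosomes in place, and it was kept in the wash and lysis buffers. There is 1 condition and no untreated group, so each gene was set against the other genes. The labels do not say whether replicates were separate cultures, so p-values measure only the spread between these samples. Of 4 genes known to be expressed in this line (VIM, NEFM, NEFL and INA) 4 were in both tables, and of 7 markers of liver, blood, immune and heart cells 0 were in either. By the abundance measure given further on, INA was low at 0.0935 times the median transcript, while VIM, NEFM and NEFL were at 16.6 to 22.2 times.

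DEAD and DEAH box proteins are ATP-dependent enzymes that unwind short RNA duplexes or strip proteins from RNA, and are named after a run of amino acids in their ATP-binding core. DEAD box members tend to open a duplex locally, whereas many DEAH box members pull along a single strand and are switched on by G-patch proteins. Between them they serve splicing, mRNA export, ribosome assembly, translation and RNA sensing.

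The coding sequence of the box itself is shown for 3 members of each family that lie at the extremes of translational efficiency, so that the position of the box can be read beside the occupancy given further on. Capitals mark the 4 codons of the box, which in DDX52, DHX9 and DHX30 encode a variant of the run that gives the families their names, and all are in exons of the coding sequence (CDS), read 5′ to 3′ on the mRNA strand from GENCODE 44 on GRCh37.
DDX18: ctggttattGATGAAGCTGATcgtatcttg
DDX52: cttgtagtaGACGAATCAGATaaactgttt
DDX3X: ttggtgttaGATGAAGCTGATcggatgttg
DHX15: ataattcttGATGAGGCTCATgagaggaca
DHX9: gtaattgtaGATGAAATACATgaaagagat
DHX30: gtcatcgtgGATGAGGTGCATgagcgggac
The capitals lie at chr2:118579768-118579779 on the plus strand (exon 7) for DDX18, at chr17:35986114-35986125 on the minus strand (exon 8) for DDX52 and at chrX:41204446-41204457 on the plus strand (exon 11) for DDX3X. For the DHX genes they lie at chr4:24557946-24557957 on the minus strand (exon 4) for DHX15, at chr1:182836152-182836163 on the plus strand (exon 14) for DHX9 and at chr3:47888237-47888248 on the plus strand (exon 11) for DHX30.

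Translational efficiency, which sets the RPFs of a gene against its total RNA, spanned a wide range within the family but was centred where all genes were. The median over the 41 helicases was 0.379, 0.370 and 0.370 in replicates 1, 2 and 3, against 0.382, 0.380 and 0.388 over all genes. The 27 DDX genes had medians of 0.376, 0.343 and 0.368, and the 14 DHX genes 0.420, 0.375 and 0.375. Means ran from 0.0965 for DHX30 to 16.9 for DDX52. Each gene was compared with the median of the whole table in limma on log2(value + 0.01), and p-values were adjusted over all genes by Benjamini-Hochberg at an FDR of 0.05. Folds above or below the median are those fitted on that scale, which understates the change of low genes, and are not ratios of the mean to the median. Of the 41 helicases, 17 were higher (41.5%, against 44.7% of all genes), 17 were lower (against 44.6%) and 7 did not pass. Because replicates lay close together, most genes pass that test, and a difference of over 2-fold was asked for as well (limma's treat). Then 8 helicases were higher (19.5%, against 23.3% of all genes) and 5 were lower (12.2%, against 18.2%). None of these shares was above that of all genes. Of the 13 calls past 2-fold, 6 were lost with a pseudocount of 0.1 in place of 0.01 (DDX1, DDX3X, DDX11, DDX41, DDX46 and DHX34), as is given beside each.

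**Figure D1:**
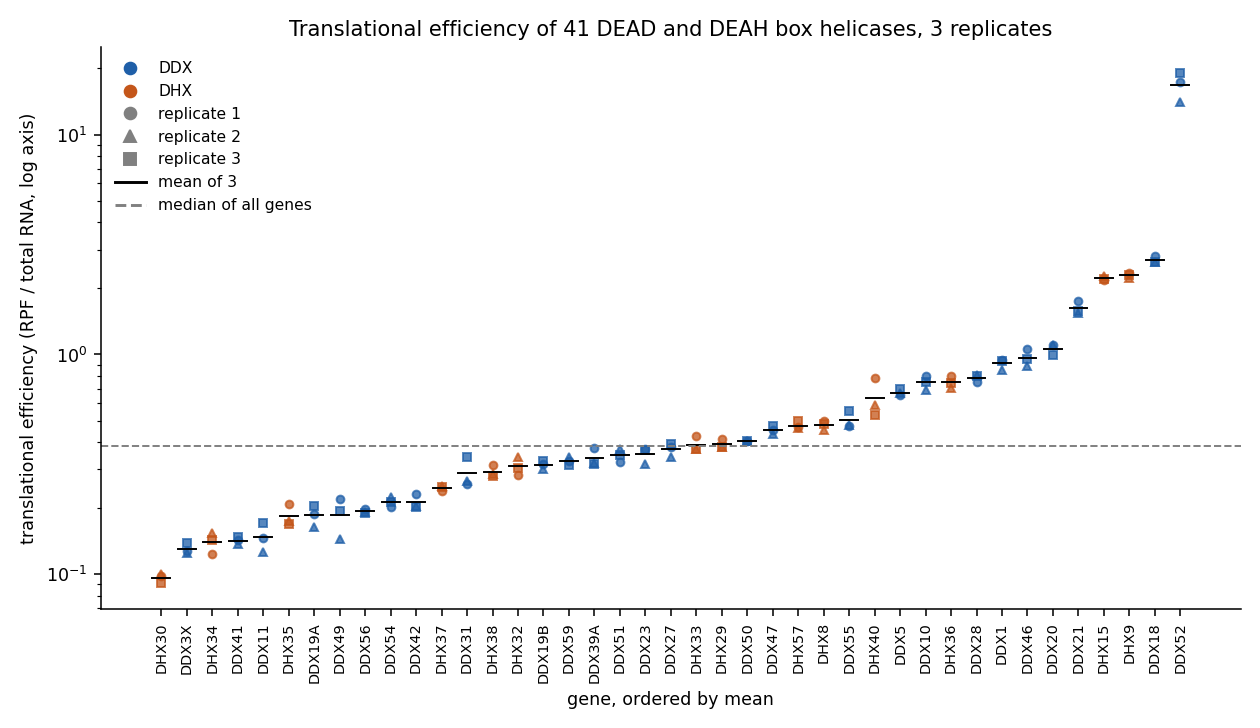
Translational efficiency (RPF over total RNA, log axis) of the 41 helicases in each of 3 replicates, ordered by mean (black bar), with the median of all genes as a dashed line. DDX52 sits apart at the top with 14.1 to 19.1, and DHX30 is lowest with 0.0912 to 0.101.

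The order was read against the spread of the replicates. Of the 40 neighbouring pairs in the order of mean translational efficiency, 30 had overlapping replicates and 25 differed by less than the larger SD of the pair, so most ranks cannot be told apart. DDX52 and DHX30 were each separated from their neighbour by a gap with no overlap.

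The helicases of ribosome biogenesis include the highest value of the family. Of 16 listed, 15 had a translational efficiency, with a median of 0.389 against 0.385 for all genes. Of these, 6 were higher than the median (40.0%, against 44.7% of all genes), 5 were lower (33.3%, against 44.6%) and 4 did not pass. DDX52, which acts in processing of the small subunit rRNA, had 17.4, 14.1 and 19.1, a mean of 16.9 ± 2.52 (SD, n = 3) and rank 43 of 8121 genes. Its fitted value lay 42.6-fold above the median (log2 5.41 ± 0.095 SE, adjusted p = 3.45e-06 for over 2-fold in limma), and each of its replicates exceeded every replicate of every other helicase. In CDS occupancy, given further on, DDX52 was only 2.62 times the median transcript, so the size of its lead is uncertain. DDX18, a nucleolar helicase of large subunit assembly, had 2.81, 2.62 and 2.63 and lay 6.85-fold above the median, with adjusted p = 6.22e-06 for over 2-fold in limma. Its value is uncertain, because 32.1% of the 30-mers of its CDS also occur in transcripts of other genes, among them processed pseudogenes.

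DDX21, which takes part in rRNA transcription and processing, had 1.75, 1.54 and 1.58, and its close relative DDX50 had 0.404, 0.403 and 0.405. The replicates of the pair did not overlap, with DDX21 4.02-fold above DDX50. With 3 values against 3, the exact two-sided permutation test cannot go below p = 0.1, which is what it gave here and in the other 2 pairs (adjusted over the 3 pairs, 0.1), so no pair passed 0.05. DDX50 is uncertain, since 29.9% of its CDS 30-mers recur in other genes.

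At the low end of the same list, DDX49 had 0.221, 0.145 and 0.193 and DDX56, a helicase of large subunit maturation, had 0.198, 0.193 and 0.190. The replicates of DDX49 straddle those of DDX56. The fitted values lay 2.03-fold and 1.93-fold below the median, and both passed the test against it, but neither passed limma's treat for over 2-fold. DDX10, DDX47 and DDX55 were the remaining higher members. All 3 are uncertain, since 22.5%, 100% and 6.65% of their CDS 30-mers also occur in transcripts of other genes.

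Of 11 splicing helicases listed, 9 had a value, with a median of 0.352. As many were higher as lower, 4 each (44.4%), which is the share among all genes (44.7% and 44.6%), and 1 did not pass. DHX15, which disassembles spliceosomes, had 2.19, 2.26 and 2.21 and lay 5.67-fold above the median (log2 2.50 ± 0.048 SE). DDX46, which remodels the U2 snRNP, had 1.06, 0.889 and 0.956 and lay 2.48-fold above it. Both were over 2-fold higher in limma's treat, and with a pseudocount of 0.1 the call was lost for DDX46 (adjusted p = 0.0844).

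DDX41, a late-stage spliceosome component, was lowest of the splicing list with 0.143, 0.137 and 0.148, 2.58-fold below the median (adjusted p = 0.00158 for over 2-fold in limma). With a pseudocount of 0.1 it was not past 2-fold (log2 -0.995). DHX35 had 0.209, 0.174 and 0.169, 2.03-fold below the median, and did not pass limma's treat. DHX32, a relative of DHX15 without an assigned role here, had 0.283, 0.341 and 0.305. DHX15 lay 7.17-fold above DHX32 with no overlap of the replicates. DHX40 was highest of the 4 genes without an assigned role, with 0.780, 0.589 and 0.533.

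Of 6 helicases of translation listed, 5 had a value. Of these, 3 were higher and 1 was lower, where all genes gave 44.7% and 44.6%, and 1, the scanning factor DHX29, did not pass. DHX9, RNA helicase A, had 2.36, 2.24 and 2.29 and lay 5.86-fold above the median, and DDX1, a part of the tRNA ligase complex, had 0.943, 0.849 and 0.938 and lay 2.34-fold above it. The 2-fold call of DDX1 was lost with a pseudocount of 0.1 (adjusted p = 0.341 in limma), without replicate 1 (0.0663) and without replicate 3 (0.0657). DHX36, which unwinds G-quadruplexes, had 0.798, 0.705 and 0.743, higher than the median but not past 2-fold. In DHX9, 15.6% of the CDS 30-mers recur elsewhere, mostly in a pseudogene.

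DDX3X, which helps ribosomes start on mRNAs with structured leaders, had 0.127, 0.124 and 0.139. All 3 replicates were below those of every other helicase of translation. Shared 30-mers came to 8.99% of its CDS. Its fitted value lay 2.81-fold below the median (log2 -1.49 ± 0.055 SE, adjusted p = 0.000706 for over 2-fold in limma). With a pseudocount of 0.1 the 2-fold call was lost (log2 -1.07, adjusted p = 0.221 in limma). In CDS occupancy, given further on, DDX3X lay on the other side, at 1.74 times the median transcript, so its low value is uncertain.

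Of the mRNA export helicases 3 had a value, of which 2, DDX19A and DDX19B, were lower than the median, where 44.6% of all genes were, and DDX39A, with 0.376, 0.321 and 0.318, did not pass. DDX19A had 0.188, 0.164 and 0.203, and DDX19B, its neighbour on chromosome 16, had 0.318, 0.300 and 0.327, so DDX19B was 1.70-fold higher with no overlap. Their coding sequences share 54.0% of the 30-mers of DDX19A, and 89.3% also occur in a readthrough transcript of the locus, so how reads were divided between them is uncertain.

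The mitochondrial helicases lay on opposite sides of the median. DDX28, needed for the large mitochondrial ribosomal subunit, had 0.748, 0.807 and 0.799, higher than the median, and DHX30, which supports mitochondrial ribosome assembly, had 0.0978, 0.101 and 0.0912. DHX30 had a fitted value 3.69-fold below the median (log2 -1.89 ± 0.053 SE, adjusted p = 6.21e-05 for over 2-fold in limma), and its replicates were below those of all other helicases. DDX20, a partner of the SMN complex in snRNP assembly, had 1.1, 1.1 and 0.991 and was over 2-fold higher.

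DHX34, a factor of nonsense-mediated decay, had 0.124, 0.154 and 0.143, and DDX11, a DNA helicase of sister chromatid cohesion, had 0.146, 0.126 and 0.171. Their replicates overlapped each other, and both were over 2-fold below the median in limma's treat. With a pseudocount of 0.1 both calls were lost (log2 -1.01 for DHX34 and -0.97 for DDX11), and that of DDX11 also without replicate 1 (adjusted p = 0.0660 in limma) and without replicate 2 (0.0661). DDX11 is uncertain, since 73.1% of its CDS 30-mers recur in other genes, chiefly its DDX12 copies. The RNA sensor DDX58 and the germline helicases had no value in this table.

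Other RNA helicases and the G-patch proteins were counted in the same way, and their difference from the family was not tested. The list of other RNA helicases held 22 symbols, of which SKIV2L2 and MTREX name the same gene. Of these symbols 12 had a value, of which 7 were higher (58.3%), 3 were lower (25.0%) and 2 did not pass, with a median of 0.528. EIF4A3, a core protein of the exon junction complex, was highest with 2.70, 2.64 and 2.50, and DICER1, the nuclease that cuts miRNA precursors, was lowest with 0.101, 0.0900 and 0.0928. Of 24 G-patch proteins, 22 had a value, of which 12 were higher (54.5%), 9 were lower (40.9%) and 1 did not pass, with a median of 0.477. GPATCH11 was highest with 1.74, 1.48 and 1.55, and ZGPAT lowest with 0.0514, 0.0406 and 0.0372. All genes gave 44.7% higher and 44.6% lower in the same test.

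The second table gives normalized ribosome occupancy, the in-frame RPF count at each codon divided by the abundance of the transcript, with the replicates combined by the authors. Its values are sums of whole multiples of 3 step sizes per transcript, which let the reads be recovered for all 20548 values above 0 in the helicases. The 3 sets of reads are called read sets 1, 2 and 3, from the smallest step to the largest. They were not matched to replicate numbers. In-frame CDS reads per helicase ran from 311 for DDX58 to 92922, with a median of 10031. A smaller step means a more abundant mRNA. On that measure the helicases had a median abundance of 2.86 times the median transcript, from 0.0989 for DDX58 to 16.3 for DDX3X, and 30 of 35 lay above it. The reads and abundance of DDX58 are uncertain, since 96.2% of its CDS 30-mers also occur in transcripts of another gene.

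Mean CDS occupancy per codon had a median of 0.0532 over the 35 helicases and 0.0450 over all transcripts. It was over 2-fold above the median transcript in 6 (17.1%, against 20.0% of all transcripts) and over 2-fold below in 3 (8.57%, against 21.5%). The highest were DDX19B with 0.201, DHX36 with 0.151, DDX46 with 0.140 and DDX52 with 0.118. The lowest were DHX34 with 0.01003, DDX23, a U5 snRNP helicase, with 0.0219, DDX51 with 0.0224 and DHX38, a spliceosome remodelling ATPase, with 0.0232. DDX51 rests on 937 reads. The values of DDX19B and DDX23 are uncertain, as 90.6% and 16.2% of their CDS 30-mers recur in transcripts of other genes. The spread over the 3 read sets, each scaled so that their mean is the deposited value, had a median of 5.25% of the mean and was at most 14.2%. DDX19B had 0.2002, 0.2019 and 0.2018 in the read sets, and DHX34 0.0103, 0.0112 and 0.00858. In all 3 read sets 6 helicases were over 2-fold above the median transcript and 2 over 2-fold below it, as 1 read set of DDX51 was within 2-fold. No test was fitted to the read sets.

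The 2 measures ranked the helicases alike in part. Over the 33 genes in both tables the Spearman coefficient of translational efficiency and CDS occupancy was 0.60, and over all 6912 genes in both it was 0.69, a description across genes that share libraries. The largest departures were in 3 genes. As the ratio of means, with no pseudocount, DDX52 was 43.8 times the median gene in translational efficiency and 2.62 times the median transcript in CDS occupancy. DDX3X was 0.338 times and 1.74 times, and DDX19B was 0.818 times and 4.47 times. The tables may hold different transcripts of a gene, and the part of that in the departures was not tested.

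**Figure D2:**
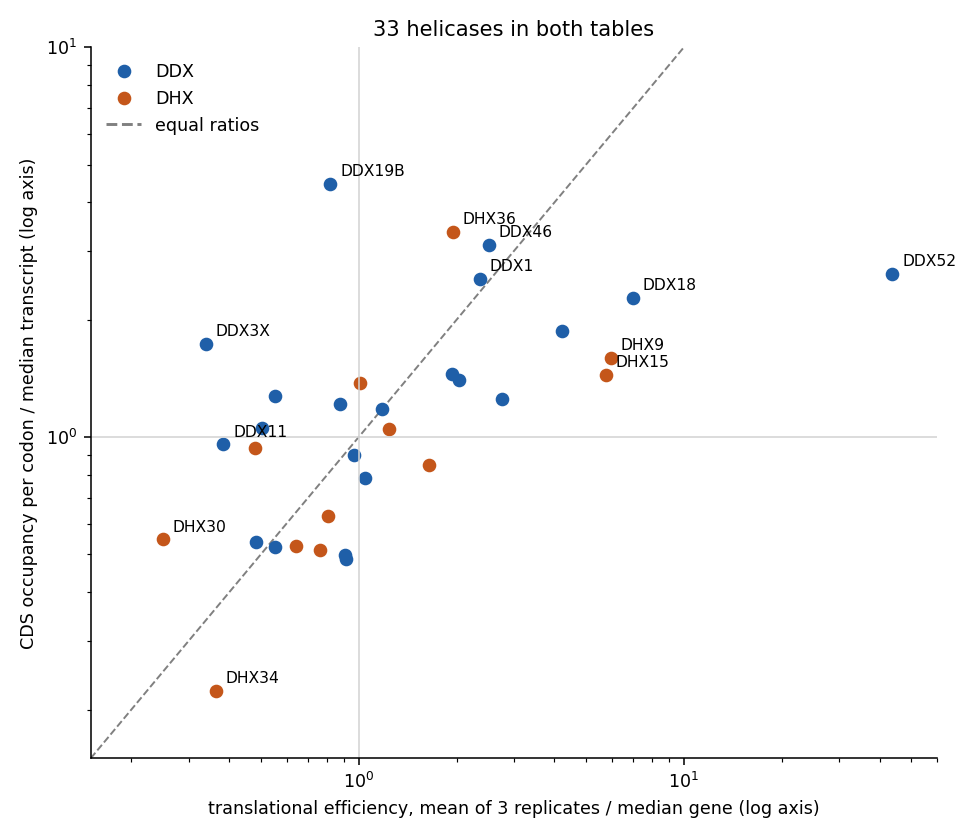
Translational efficiency relative to the median gene (x, log axis) against CDS occupancy relative to the median transcript (y, log axis) for the 33 helicases in both tables, with a dashed line where the ratios are equal. DDX52 lies far to the right of the line at 43.8 and 2.62, while DDX19B and DDX3X lie above it.

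Upstream of the CDS, 5′UTR occupancy per codon exceeded 0.1 of CDS occupancy in 7 of the 30 helicases with a long enough 5′UTR (23.3%, against 30.3% of all transcripts). Over the whole 5′UTR, DHX9 was highest with a ratio of 0.408, from 1583 5′UTR reads, and with 0.422, 0.373 and 0.426 in the 3 read sets. DDX18 followed with 0.268 (0.299, 0.223 and 0.277), and then DHX34 with 0.250 from 42 reads (0.274, 0.217 and 0.265). All 3 read sets of DHX9 lay above those of the other helicases. The order was another when only the 17 codons nearest the start codon were counted. There DHX32 was highest with 0.553, against 0.155 over its whole 5′UTR, followed by DDX11 with 0.409, DDX39A with 0.404 and DHX9 with 0.266. DHX32 had only 51 reads in its whole 5′UTR, and its whole-5′UTR ratios in the read sets were 0.192, 0.0527 and 0.230.

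The 5′UTR reads were unevenly placed. In DDX18, 51.7% of the 412 reads sat at 1 codon 18 codons ahead of the start codon, and in DHX38, which had a ratio of 0.212, 42.1% of 76 reads sat 45 codons ahead. In DDX39A, with a ratio of 0.191, the read sets gave 0.253, 0.165 and 0.157. DDX49 had no 5′UTR read, which allows a ratio of up to 0.00992. Reads in the other frames are not in this table.

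**Figure D3:**
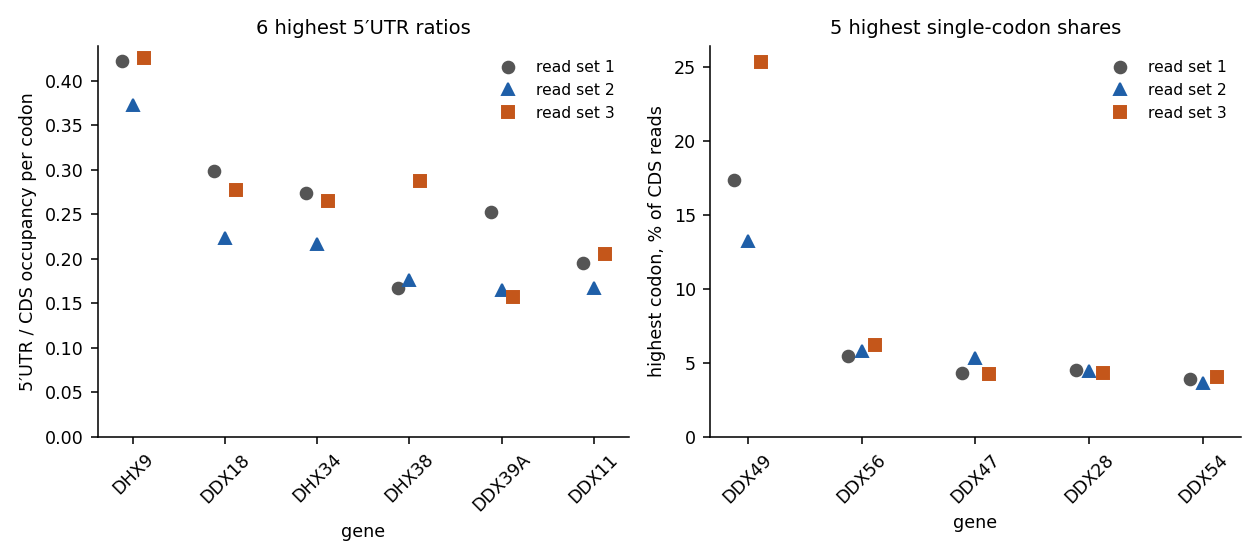
Left, the ratio of whole-5′UTR to CDS occupancy per codon in the 3 read sets for the 6 helicases with the highest ratios. Right, the share of CDS reads at the highest codon in the 3 read sets for the 5 helicases with the largest share. DHX9 leads the left panel with 0.373 to 0.426 and DDX49 the right panel with 13.2 to 25.3%.

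Along the CDS, the ratio of occupancy in the first 75 codons to that in the last 75 was above 2 in 7 of 35 helicases (20.0%, the same share as the 20.0% of all transcripts) and below 0.5 in 9 (25.7%, against 22.7%). With the CDS cut at its middle in place of the 75-codon windows, these counts were 0 and 2. The share of all transcripts was not counted for that cut, so the fall cannot be called particular to the helicases. DDX11 was most loaded at the front with 3.17, and its read sets gave 3.37, 2.23 and 4.16. DHX9 followed with 2.76 (2.73, 2.90 and 2.68), DDX23 with 2.48 and DHX8 with 2.43. The read sets of these 4 genes were all above 2. With windows of 50 codons DHX9 fell to 1.95, while DDX11, DDX23 and DHX8 stayed above 2.

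At the other end, DDX20 had 0.103 (0.105, 0.123 and 0.0775), from 124 reads near the start and 1183 near the stop codon. DHX33, a nucleolar helicase, had 0.206, DDX19B 0.232 and DHX30 0.241. With the CDS cut into 10 equal parts, the first part of DDX20 held 1.01% of the occupancy and the last part of DDX19B held 31.6%. In DHX30 the first part held 10.7%, and without the first 15 and last 5 codons its ratio turned to 1.58, so it was loaded at the back only with those codons in. The other 3 kept ratios from 0.0870 to 0.336 without them.

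**Figure D4:**
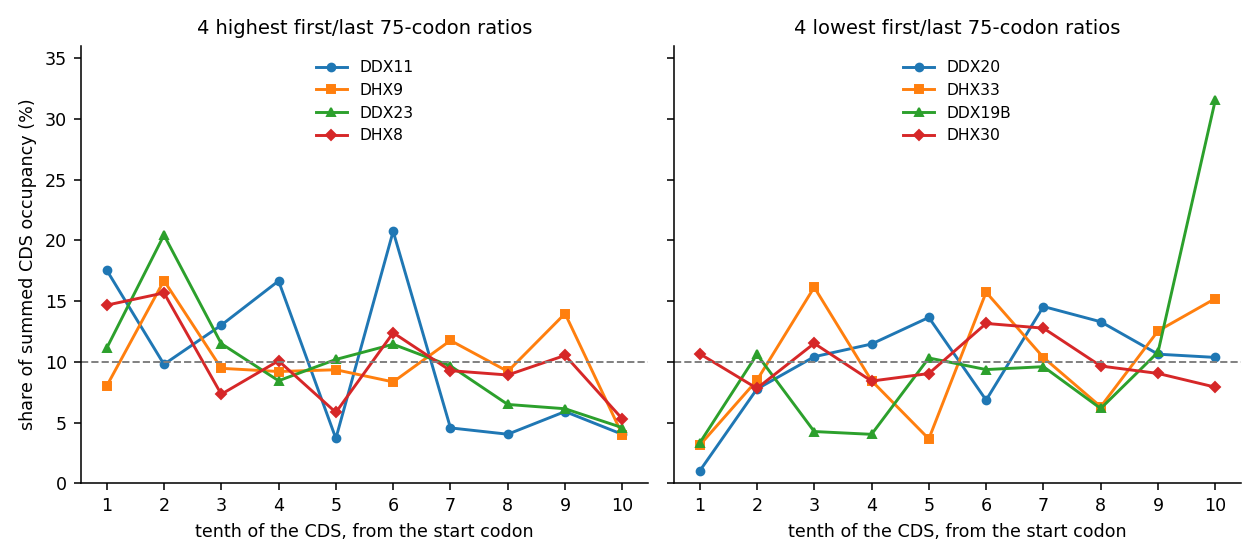
Share of summed CDS occupancy in each of 10 equal parts of the CDS for the 4 helicases with the highest (left) and the 4 with the lowest (right) ratio of first to last 75 codons. The dashed line is an even spread of 10%. DDX20 starts at 1.01% and DDX19B ends at 31.6%.

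A single codon held at least 5% of CDS occupancy in 2 of 35 helicases (5.71%, against 49.3% of all transcripts). The share depends on CDS length and on read depth. The 35 helicases had a median of 796 codons against 448 for all transcripts, and a median abundance of 2.86 times the median transcript. The part of either in the lower share was not tested. In DDX49, codon 44 of 484 held 18.6%. It had 557, 352 and 465 reads in the 3 read sets, which is 17.4, 13.2 and 25.3% of each. Over the sets, 1374 of 7704 reads gave 17.8% (95% Wilson interval 17 to 18.7, for counting error only). The codon lies at chr19:19031403-19031405 on the plus strand, in exon 2, and is in capitals.
DDX49: cgagactgcttgGGCtgtgctaagaca
The next highest codon of DDX49 held 2.30%. DDX56 had 5.81% at codon 268, and DDX47, DDX28 and DDX54 had 4.65, 4.41 and 3.83% at theirs. The read sets of DDX49 stood above those of all the others.

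The box was located in 33 of the 34 helicases whose CDS length matched the annotation. Its 4 codons had a median occupancy of 1.53 times the CDS mean, from 0.220 to 7.92, where the same 4-letter pattern in other CDSs had a median of 1.23 times. The box window lay above the middle of its own CDS in 29 of 33 (87.9%), and at or above the 90th percentile in 12.1%. In the 1716 windows with that pattern in other CDSs the shares were 74.9% and 23.4%, so the helicases had the larger share at one limit and the smaller at the other. In DDX52 the box window held 533 reads and had 6.47 times the CDS mean.

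In 6 of the 11 DHX genes with a box, and in 0 of 22 DDX genes, the in-frame motif TTNGANGAN lay upstream of the box such that the next codon was 34 or 35 codons ahead of it. The search ran from 28 to 42 codons ahead of the box, counted from the start of the motif. At the same distance ahead of the box pattern in other CDSs, 36 of 1631 windows (2.21%) had the motif. The place and motif were chosen after the values had been seen, so no test is given and no contrast with the other CDSs can be drawn. The 6 stretches are shown with that codon in capitals, since it is the highest codon of the whole CDS in 3 of them, by a small lead.
DHX15: cgatttgaagacTGCagtagtgcaaaa
DHX35: cgctttgatgacTGCaccgaccagctg
DHX40: cgttttgatgatTGCagttctaaggag
DHX33: cgctttgatgatGTCacctcagaagac
DHX8: cgatttgaggacTGCactagccctgaa
DHX38: cgctttgaagacTGCacttcagagaac
The capitals lie at chr4:24572300-24572302 (minus strand, exon 3) in DHX15, at chr20:37617531-37617533 (plus, exon 5) in DHX35, at chr17:57648013-57648015 (plus, exon 3) in DHX40, at chr17:5365837-5365839 (minus, exon 3) in DHX33, at chr17:41584898-41584900 (plus, exon 14) in DHX8 and at chr16:72137872-72137874 (plus, exon 14) in DHX38.

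The codon had 13.9 times the CDS mean in DHX15, 19.2 times in DHX35, 17.4 times in DHX40 and 16.8 times in DHX33, where it ranked 4. The read sets of DHX15 held 328, 324 and 210 reads there, and those of DHX35 only 9, 14 and 13. Where the codon ranked first, its lead over the next highest codon was small. It held 1.75 against 1.72% of CDS occupancy in DHX15, 2.72 against 2.51% in DHX35 and 2.23 against 1.98% in DHX40. In DHX8 the codon after the motif was 1.02 times the mean, and in DHX38 it had 0 reads, which allows up to 0.0730% of that CDS. Codons close by were high in both. DHX38 had 12.8 times the mean 7 codons after the codon in capitals, and DHX8 had 8.25 times 3 codons before it. The 6 genes did not behave alike at the codon in capitals. In other CDSs 25 of 5995 codons after the motif (0.417%) were the highest of their CDS, and 40.9% of CDSs hold the motif in frame at any position. Because the motif was picked with the peaks of these DHX genes known, these shares are background only and cannot be set against the DHX genes. DHX40 shares 45.1% of its CDS 30-mers with a pseudogene.

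**Figure D5:**
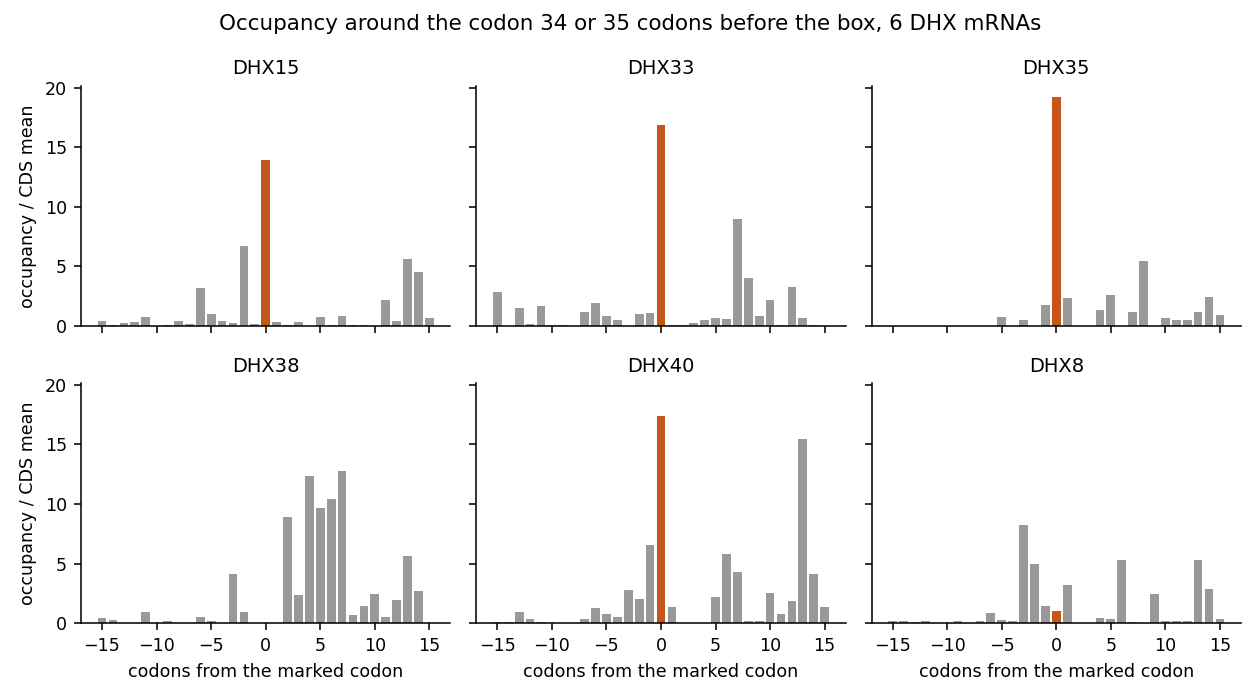
Occupancy relative to the CDS mean at 15 codons on either side of the codon that follows the motif (orange, at 0) in 6 DHX genes. The orange bar is the highest in DHX15, DHX33, DHX35 and DHX40, near the mean in DHX8 and 0 in DHX38.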

How the data were processed

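The tables were analysed as deposited. Translational efficiency is a linear ratio of RPF to total RNA for each replicate, deposited by the authors, and how it was computed is not stated in the paper or the labels. Its columns carry replicate numbers 1 to 3. Ribosome occupancy values, in the authors' own normalized unit (other), are in-frame RPF counts per codon, placed with a fixed offset, normalized for library size and divided by the TPM of the transcript, with replicates combined, as deposited. The submitters' processing notes name cutadapt 1.16, Bowtie 1.1.2, TopHat2 2.1.1, HTSeq 0.9.1 and build hg19, whereas the methods name Hisat2 for total RNA. Depth per library is not in these tables.

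For translational efficiency, limma (version 3.58.1, R 4.3.3) was fitted to log2(value + 0.01) minus the median of all values, over 8121 genes (Benjamini-Hochberg, FDR 0.05), and with treat at a limit of 1. On simulated data for this comparison, of 200 genes moved among 8121, 91% of those moved by 1 and 100% of those moved by 2 were called, 0 with the wrong sign, and 10 unmoved genes were called. With treat, 87% of those moved by 2 and 0 unmoved genes were called. Occupancy was described with fold limits of 2 and the spread of the 3 recovered read sets, which the table does not tie to replicate numbers, and no test was fitted to it. A 5′UTR needed 17 codons and a CDS 150 for the windows. Whole reads were solved from the values; on 200 simulated transcripts 100% of values were exact. Shared sequence is the percentage of CDS 30-mers found in transcripts of other genes (GENCODE 44 on GRCh37). Of the occupancy lists, 31 were broken over lines and rejoined, 0 of them in helicases. Tables were handled with Python 3.11.15, numpy 2.4.6, pandas 2.3.3, scipy 1.17.1.

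The members and gene lists were chosen with earlier results of these data known. Named genes are the highest and lowest of each list, the 8 highest and 8 lowest in translational efficiency, members of 8 listed pairs, the extremes of each occupancy measure and, beyond that, genes named after their values were seen. RPF and total RNA of a number come from 1 lysate, so the pairing is inside the ratio.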

Additional observations from a re-analysis of the deposited data

How the results depend on the processing

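Of 81 alternative values of the counts and pair differences, 74 kept their direction and stayed within 1.5 times the reported count. With a pseudocount of 0.1 the count over 2-fold below the median was 1, with DHX30 left. Keeping genes with under 5% shared 30-mers left 29 helicases, of which 11 were lower and 3 over 2-fold lower. With a limit of 0.2 the 5′UTR count was 4, and with a limit of 10% the single-codon count was 1. With the first and second part of the CDS, cut at its middle, in place of 75-codon windows, 0 helicases were loaded at the front and 2 at the back. The shares of all transcripts at these other limits and windows were not counted. Leaving out each replicate in turn gave 17 helicases higher and from 16 to 18 lower, and over 2-fold from 7 to 8 higher and from 4 to 5 lower. With the replicate block, in which each replicate has its own median, 17 were higher and 17 lower, and 8 and 5 past 2-fold, as without it. Of 275 values of single genes, 268 kept their side of the threshold and 7 changed it. DDX39A became lower with a pseudocount of 0.1 (adjusted p = 0.0485 in limma), with low values left out (0.0404) and without replicate 1 (0.0174). DDX59 was no longer lower without replicate 3 (0.0737) and without shared sequence (0.134), where DHX32 also lost its call (0.0506) and DHX29 became higher (0.0491). The sign changed, on the log2 scale, in 4 values of 3 genes that did not pass the test. DDX27 ran from -0.077 to 0.00075 on leaving out each replicate and was 0.073 without shared sequence, DHX29 ran from -0.016 to 0.056, and DHX33 from -0.053 to 0.058. The cause of these changes was not tested. Codon values of low-abundance mRNAs rest on few reads, 311 in DDX58.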
